A study of Mus musculus with 2 samples.

Results

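The miR-26 family comprises 3 microRNA (miRNA) loci in the mouse count tables, Mir26b, Mir26a-2 and Mir26a-1. They were chosen by name, and each is 1 of the 1973 miRNA loci counted. The series holds 1 group, midbrain tissue from B6NCrl mouse embryos aged 14.5 days, with 2 biological replicates and no second condition. Each library came from 1 midbrain, collected on a different day, although the labels give both the same donor identifier and the sex as mixed. If they are not separate animals, the spread between them may be technical. RNA below 30 nt was sequenced from whole tissue, so fewer cells with a miRNA and less of it per cell cannot be told apart.

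miR-26 hairpins lie in introns of the Ctdsp genes, which encode small phosphatases that act on the C-terminal domain of RNA polymerase II. These phosphatases work with the repressor REST, which keeps neuronal genes silent in cells that are not neurons and in neural progenitors. In zebrafish, miR-26b represses the host transcript ctdsp2 during neurogenesis. A miRNA hairpin yields a 5p arm and a 3p arm, and bases 2 to 8 of the arm, its seed, direct it to target transcripts; in this family the 5p arm is the usual guide strand.

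The mature sequences show what the loci have in common, with the seed in capitals, 5′ to 3′, from RefSeq on mouse build GRCm38.p6, which held all 3 loci.
mmu-miR-26a-5p: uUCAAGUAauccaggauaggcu
mmu-miR-26b-5p: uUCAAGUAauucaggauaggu
mmu-miR-26a-1-3p: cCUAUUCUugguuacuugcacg
mmu-miR-26a-2-3p: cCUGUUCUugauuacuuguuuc
mmu-miR-26b-3p: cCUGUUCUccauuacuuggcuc
The 5p arms of all 3 loci carry 1 seed, UCAAGUA. The 5p arms of Mir26a-1 and Mir26a-2 are the same 22 nt molecule, whereas miR-26b-5p is 21 nt long and differs from it over the first 21 bases by C11U and C21U (miR-26a base, position from the 5′ end, miR-26b base). On the 3p side the loci part. The 3p arms of Mir26a-2 and Mir26b share the seed CUGUUCU, and that of Mir26a-1 differs from Mir26a-2 by A4G within the seed and by 6 of 22 bases in all. Each 3p arm was found at 1 locus.

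The hairpins are shown with the longest stretch that Mir26a-1 and Mir26a-2 have in common in capitals, because a read that lies wholly within it has no single place of origin.
Mir26b: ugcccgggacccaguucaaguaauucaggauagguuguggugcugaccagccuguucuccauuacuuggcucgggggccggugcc
Mir26a-2: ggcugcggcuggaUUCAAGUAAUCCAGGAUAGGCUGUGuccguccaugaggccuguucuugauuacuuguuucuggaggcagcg
Mir26a-1: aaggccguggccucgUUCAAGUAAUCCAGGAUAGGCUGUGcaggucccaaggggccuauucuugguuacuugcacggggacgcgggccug
The common stretch is 25 nt long. It runs from base 14 to 38 of Mir26a-2 and from base 16 to 40 of Mir26a-1, and begins with the first base of the 5p arm in both. The longest stretch that Mir26b has in common is 10 nt with Mir26a-2 and 11 nt with Mir26a-1. Of all windows of 20 nt, 0 of 66 in Mir26b, 6 of 65 in Mir26a-2 and 6 of 71 in Mir26a-1 occurred in another of the 2202 miRNA hairpins of GENCODE M21 on either strand. The shared windows of each Mir26a locus were found in the other alone. A search of 141767 annotated transcripts, hairpins included, found miR-26a-5p in the hairpins of Mir26a-1 and Mir26a-2. It found each of the other 4 mature sequences in its own hairpin. Both searches took exact matches only, and copies elsewhere in the genome, outside annotated transcripts, were not searched for.

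**Figure D1:**
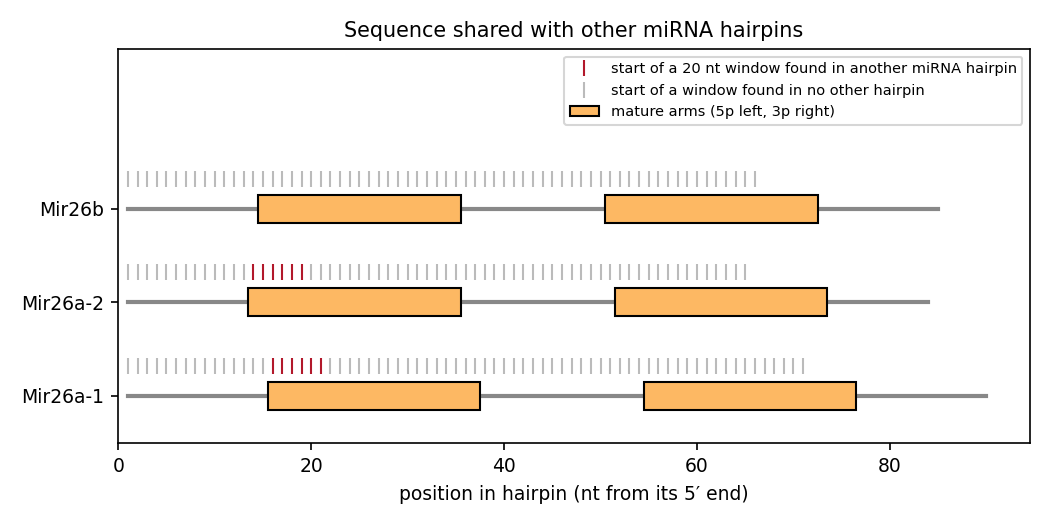
Each grey line is a hairpin, on an axis of position in nt from its 5′ end, with boxes for its mature arms and ticks for the start of each 20 nt window. Red ticks, 6 at Mir26a-2, 6 at Mir26a-1 and 0 at Mir26b, mark windows present in another miRNA hairpin, and all of them start within the 5p arm.

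By reads placed at 1 locus, Mir26b was one of the most abundant miRNA loci of the midbrain. It had 105454 sense reads (reads on the annotated strand) in replicate 1 and 54392 in replicate 2. These are 14441 and 13712 CPM (counts scaled to the total of sense reads at miRNA loci), a mean of 14076 ± 515 CPM (SD, n = 2). The locus ranked 15 of 1973 in replicate 1 and 16 in replicate 2. Mir26a-2 had 251 and 126 sense reads, which are 34.4 and 31.8 CPM, a mean of 33.1 ± 1.84 CPM (SD, n = 2), and ranked 262 and 264. Mir26a-1 was lowest with 80 and 31 reads, 11.0 and 7.82 CPM, a mean of 9.38 ± 2.22 CPM (SD, n = 2), and ranked 307 and 323. All 3 passed the detection limit of 10 reads in each replicate, as did 20.1% of all loci. The median detected locus stood at 120.0 CPM, below Mir26b and above both Mir26a loci. Of 929 loci that hold a 20 nt window of another hairpin, 9.26% were detected, against 32.2% of 965 loci without one, the class of Mir26b. Among detected loci the order was the reverse, with a median of 195.4 CPM for loci with such a window and 118.0 CPM for those without. The ranks use reads placed at 1 locus, and the part of shared reads in them was not tested.

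The order Mir26b, Mir26a-2, Mir26a-1 held in both libraries, with no overlap between the values of any pair. Exact Clopper-Pearson 95% intervals for the CPM did not overlap either. For Mir26a-2 they were 30.3 to 38.9 in replicate 1 and 26.5 to 37.8 in replicate 2, and for Mir26a-1 they were 8.69 to 13.6 and 5.31 to 11.1. These intervals cover counting error only, as PCR copies of a molecule are counted as separate reads. The library totals were 7302633 and 3966727 sense reads, so that 1 read was worth 0.137 CPM in replicate 1 and 0.252 CPM in replicate 2, and Mir26a-1 in replicate 2 rests on the fewest reads of the family.

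**Figure D2:**
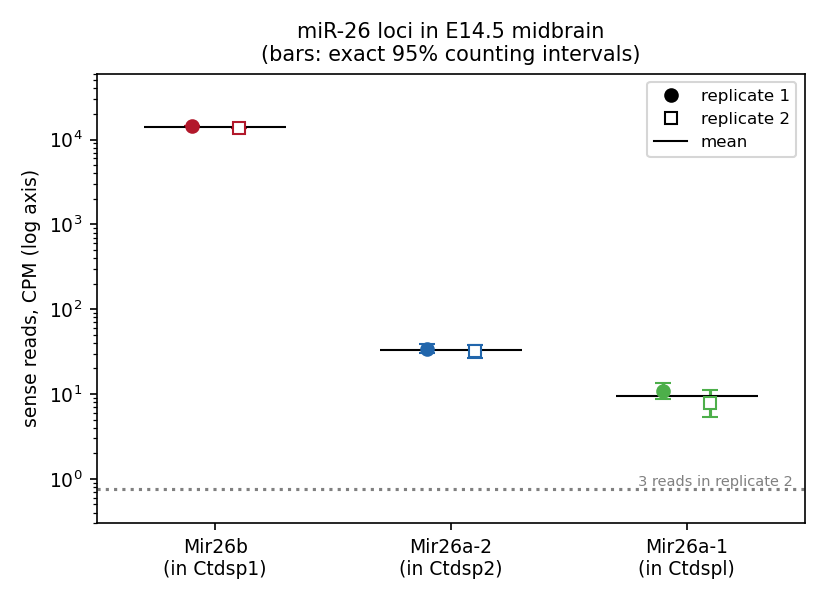
Sense reads in CPM on a log axis for each miR-26 locus and replicate, with exact 95% counting intervals as bars and the mean as a line; the dotted line marks the level of 3 reads in replicate 2. Mir26b sits near 14076 CPM, Mir26a-2 near 33.1 CPM and Mir26a-1 near 9.38 CPM in both libraries.

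Within the family nearly every counted read was assigned to Mir26b, 99.69% in replicate 1 and 99.71% in replicate 2. Mir26b exceeded Mir26a-2 by 420.1 times and 432 times, a mean ratio of 426 ± 8.17 (SD, n = 2). It exceeded Mir26a-1 by 1318 and 1755 times (1536 ± 309). Mir26a-2 exceeded Mir26a-1 by 3.14 and 4.06 times (3.60 ± 0.655), and took 75.8% (exact interval 70.8 to 80.3) and 80.3% (73.2 to 86.2) of the reads counted at the Mir26a pair. The ratio of the pair was thus not resolved between the libraries, because these intervals overlap.

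The counts of the Mir26a loci leave out reads that the shared stretch makes ambiguous. The tables tally reads mapping to several places apart from the genes, at 6459664 in replicate 1 and 3533259 in replicate 2, or 36.2% and 36.9% of all reads. This class was 61.1 and 64.8 times as large as the reads counted at the whole family, and how many of its reads are miR-26a-5p was not tested, since the tables do not divide it. The level of miR-26a-5p therefore has no value here, and the 42.5 ± 4.06 CPM (SD, n = 2) at the Mir26a pair together counts only reads placed at 1 locus. The tables also give 1 count per hairpin and do not separate 5p from 3p reads. The order of the loci is one of counted reads, and does not rank miR-26a against miR-26b as molecules.

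Reads at all 3 loci followed the annotated strand. The opposite strand held 0 reads at each in both libraries, which at Mir26b allows a share of up to 0.00284% in replicate 1 and 0.00552% in replicate 2, the level of 3 reads. At Mir26a-1, with fewer reads, the same limit is 3.75% and 9.68%.

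The hosts place the 3 hairpins in one corresponding intron. In the coordinates of GRCm38 (mm10, the assembly of the counts), Mir26b (ENSMUSG00000065468.1) lies on chromosome 1 from 74394310 to 74394394 in intron 4 of Ctdsp1. Mir26a-2 (ENSMUSG00000065430.1) lies on chromosome 10 from 126995530 to 126995613 in intron 5 of Ctdsp2, and Mir26a-1 (ENSMUSG00000065513.1) on chromosome 9 from 119031796 to 119031885 in intron 5 of Ctdspl. All are on the plus strand, as are their hosts. The intron is preceded by an exon of 57 bp and followed by one of 93 bp in each of the 3 hosts, in the longest principal protein-coding transcript of GENCODE M21. Its length differs, at 564 bp in Ctdsp1, 1946 bp in Ctdsp2 and 3283 bp in Ctdspl. The hairpin starts 2801 bp from the start of the Ctdsp1 transcript, 16813 bp from that of Ctdsp2 and 105343 bp from that of Ctdspl. The locus with the most reads is thus in the shortest host and intron and the one with the fewest in the longest, an order over 3 loci whose counts leave out shared reads.

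**Figure D3:**
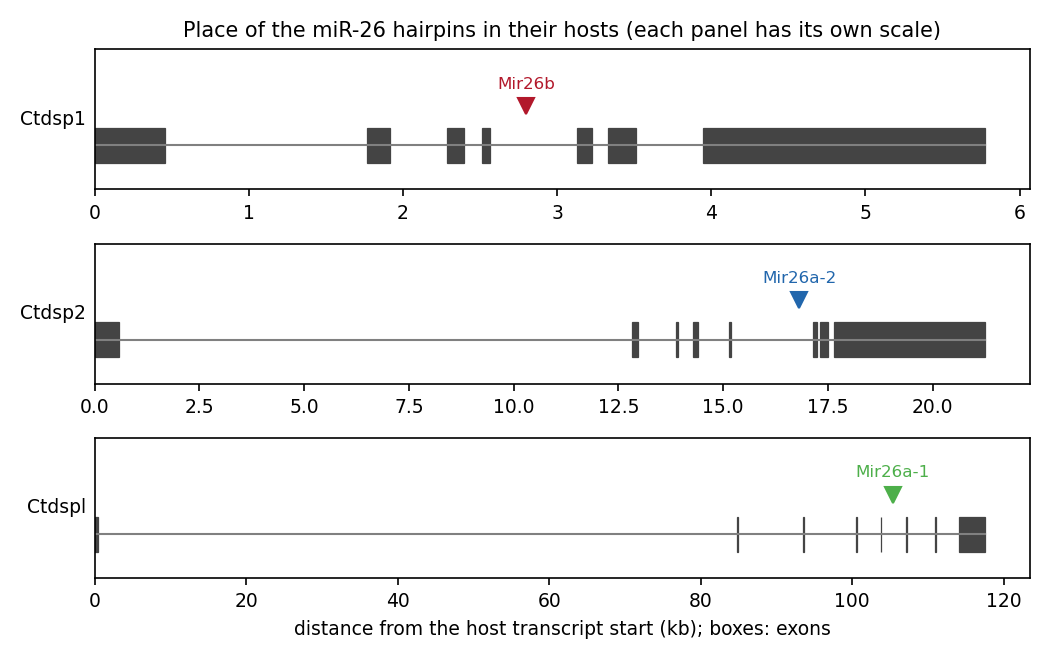
Exons (boxes) of the 3 host transcripts on axes of distance from the transcript start in kb, each panel on its own scale, with a triangle at the hairpin. Each hairpin sits in the intron between exons of 57 and 93 bp, 2801 bp from the start in Ctdsp1, 16813 bp in Ctdsp2 and 105343 bp in Ctdspl.

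The annotation around Mir26a-2 has 2 further features. Another 2 transcripts of Ctdsp2, 1 protein-coding and 1 with a retained intron, begin at position 126995613, the last base of the hairpin. Mir546, a second annotated miRNA locus in Ctdsp2 (chromosome 10 from 126998440 to 126998560), had 4 sense reads in replicate 1 and 1 in replicate 2 and was not detected. It overlaps an exon of its host, and no other counted miRNA locus lies in Ctdsp1 or Ctdspl. The miR-26 loci were thus the only detected miRNA loci in their hosts.

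Between the libraries Mir26b and Mir26a-2 differed less than the median detected locus did, and Mir26a-1 differed more. After TMM scaling in edgeR, which sets the bulk of loci equal, log2(replicate 2/replicate 1) was -0.17 for Mir26b, -0.21 for Mir26a-2 and -0.58 for Mir26a-1, against a median absolute value of 0.23 over the 397 detected loci. A two-sided exact binomial test at each locus, adjusted by the Benjamini-Hochberg method over all 397, gave an adjusted p of 4.48e-110 for Mir26b, 0.288 for Mir26a-2 and 0.106 for Mir26a-1. It called 1 of 3 members, against 53.9% of all loci tested, 95 higher and 119 lower in replicate 2; with plain totals the split was 127 higher and 90 lower. Counting error is the only error in this test, which sets one library against the other and not a condition against a control. With edgeR's exactTest at a fixed biological coefficient of variation of 0.1, Mir26b had an adjusted p of 0.762, and 6.55% of loci passed. Its adjusted p in the exact binomial test was at most 3.88e-22 under the other scalings, filters and strands. The call of Mir26b thus rests on its many reads, at a level in replicate 2 of 0.889 times that in replicate 1.

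**Figure D4:**
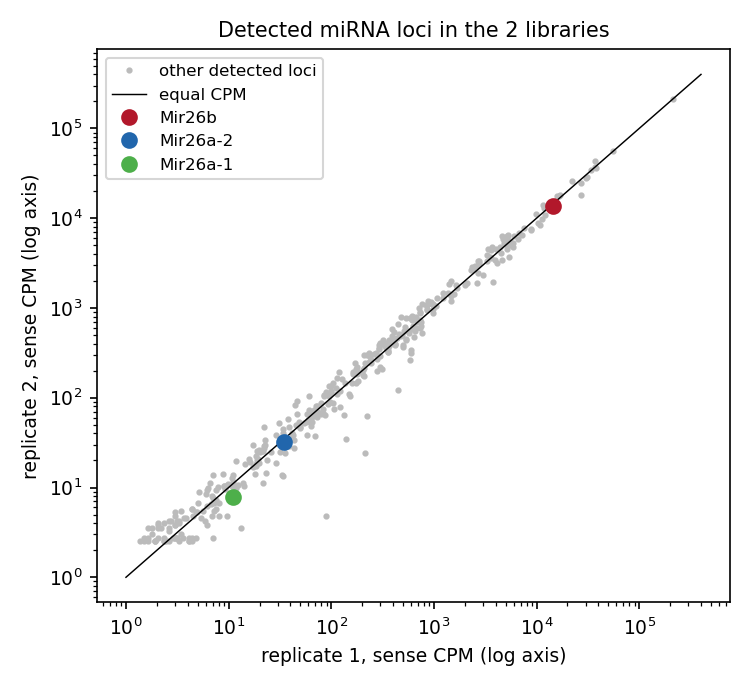
Sense CPM of the 397 detected loci in replicate 1 (x) and replicate 2 (y), both on log axes, with a line of equal CPM. Mir26b, Mir26a-2 and Mir26a-1 each lie near the line and inside the cloud of other loci.

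The 2 libraries of 1 group give no pattern across conditions, so likeness was taken as the place in the order of mean CPM. Mir26b stood below Mir181c (17148 ± 755 CPM) and Mir135b (16627 ± 1341 CPM) and above Mir93 (12813 ± 640.2 CPM), with differences larger than the SD of either locus of each pair. From the neural miRNA Mir137, at 12716 ± 1726 CPM, it did not differ beyond that spread, and in replicate 2 Mir137 was the higher, at 13936 CPM. Directly above Mir26a-2 in this order stood Mir452 (34.0 ± 6.72 CPM) and Mir3061 (33.8 ± 6.75 CPM), and directly below it Mir1955 (29.8 ± 7.50 CPM) and Mir3078 (28.2 ± 4.90 CPM). The gap to Mir3078 was just beyond the larger SD, and those to the other 3 were within it. Mir26a-1 stood below Mir3062 (9.69 ± 0.918 CPM) and Mir669h (9.45 ± 0.189 CPM) and above Mir3962 (8.96 ± 3.37 CPM) and Mir208b (8.94 ± 1.61 CPM), each within the larger SD (n = 2 for each).

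Other miRNA families lie in introns of paralogous hosts, and the family of miR-103 and miR-107, in the pantothenate kinase genes, is laid out like miR-26. Its Mir103-1 and Mir103-2, in Pank3 and Pank2, have 1 mature 3p arm in common, and the third locus, Mir107 in Pank1, differs from it by G22C (miR-103 base first). The 3p sequences show how close the pair is, again with the seed in capitals.
mmu-miR-103-3p: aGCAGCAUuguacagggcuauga
mmu-miR-107-3p: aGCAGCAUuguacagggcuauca
In counted reads, Mir26b exceeded Mir26a-2 by 426 ± 8.17 times, and Mir107 exceeded Mir103-2 by 38.6 ± 9.59 times. The counts of Mir103-1, Mir103-2 and Mir107 also leave out reads that their shared sequence makes ambiguous. The part of such reads in these ratios was not tested. The level was 2757 ± 305 CPM at Mir107 and 72.8 ± 10.2 CPM at Mir103-2 (SD, n = 2). Mir103-1 had 11.2 CPM in replicate 1 and 8.82 CPM in replicate 2. In both families the locus with no mature arm in common with another locus had the most counted reads. The longest stretch that Mir107 has in common with each Mir103 locus is 24 nt, against at most 11 nt for Mir26b. Because of G22C that stretch cannot hold the whole of miR-107-3p, whereas the stretch common to the Mir26a pair holds the whole of miR-26a-5p.

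Loci that share a mature arm covered a wide range of counted reads. Mir128-1 in R3hdm1 and Mir128-2 in Arpp21, have the mature 3p arm in common, as the Mir26a pair has its 5p arm, and their longest common stretch is 23 nt. They had 1179 ± 155 and 734 ± 89.7 CPM, a ratio of 1.60 ± 0.0153. The counts of the Mir128 and Mir218 pairs leave out shared reads as those of the Mir26a pair do, and the part of these reads in the levels was not tested. Mir218-2 in Slit3 and Mir218-1 in Slit2, hosts that encode axon guidance ligands, share their 5p arm and had 69.1 ± 31.7 and 24.8 ± 3.74 CPM, against 33.1 ± 1.84 CPM at Mir26a-2 and 9.38 ± 2.22 CPM at Mir26a-1. Mir153, in Ptprn2, has no shared window and reached 5876 ± 843 CPM. All 8 loci of these families, a list chosen with earlier results of these data known, were detected, as were 20.1% of all 1973 loci. Their median was 404 CPM, beside 120.0 CPM over all detected loci and 33.1 CPM over the miR-26 loci. With undetected loci included, the median over all 1973 loci was 0 CPM.

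**Figure D5:**
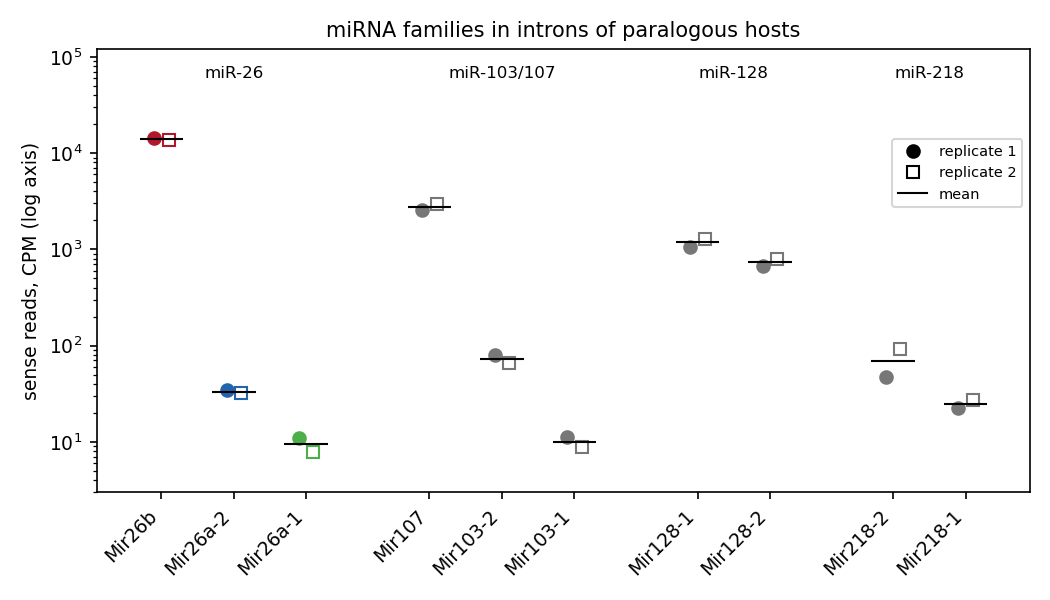
Sense CPM on a log axis for miRNA families whose loci lie in introns of paralogous hosts, with a point per replicate and a line at the mean. Reads mapping to several places are left out. In the counts shown, Mir26b stands 426 times above Mir26a-2, Mir107 stands 38.6 times above Mir103-2, and Mir128-1 and Mir128-2 differ by 1.60 times.

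In reads placed at 1 locus, the counted loci of miRNAs whose genes are known REST targets were all far below Mir26b. This order does not rank the miRNAs as molecules. Of 8 listed loci, 7 had a count, with a median of 11.3 CPM, and Mir9-1 was not analysed here. Of these 7, 5 were detected (71.4%, against 20.1% of all loci). The detected 5 had a median of 47.8 CPM, against 120.0 CPM over all detected loci. Mir132, a miRNA induced by neuronal activity, was the highest, and Mir26b exceeded it by 19.6 times in replicate 1 and 15.5 times in replicate 2. Its cluster partner Mir212 had 37.9 and 57.7 CPM. Mir9-3, from a family of neural progenitors, averaged 536 ± 31.0 CPM, while Mir9-2 had 25 reads in replicate 1 and 3 in replicate 2. The 3 loci of neuronal miR-124, Mir124a-1, Mir124a-2 and Mir124a-3, stood between 1.92 and 11.3 CPM on average. Both counted Mir9 loci and all 3 Mir124a loci hold a 20 nt window of another hairpin, as the Mir26a loci do, so that for these 5 loci too the counts leave out ambiguous reads. The mRNA of Rest and of the Ctdsp hosts was not measured in these libraries.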

How the data were processed

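The authors deposited 1 table of raw read counts per library, in which each miRNA gene has a count on the annotated strand, one on the opposite strand and their sum. Per the text deposited with each library, counting used assembly mm10 and annotation M4. Aligner, counter and their settings were not stated there. The 4 classes of reads outside genes entered neither library sizes nor tests: replicate 1 had 19.0% unmapped, 36.2% mapping to several places and 3.10% in no gene, and replicate 2 had 18.5%, 36.9% and 2.17%; the ambiguous class was empty.

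GENCODE M21, also on mm10, gave symbols, positions and hosts by gene identifier for 1894 of 1973 loci. Sequences came from RefSeq and the M21 transcripts. CPM was computed on the sense total of each library. Detected means at least 10 sense reads in each replicate. Libraries were scaled with TMM on detected loci (edgeR 4.0.16, R 4.3.3). The exact binomial test was also run on simulated counts with counting error alone, the error it assumes. Such counts have no other variation between libraries, so that run cannot show how the test behaves with it. With 1 library against 1, glmQLFTest could not be fitted.

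Named loci were the 3 members, lists of REST targets and of families in paralogous hosts, and the 2 loci above and below each member in mean CPM; Mir546 was chosen after its values were seen. Members and lists were chosen with earlier results of these data known. Alternatives were other denominators, DESeq2 1.42.0 size factors, other filters and window lengths, both strands, exactTest, and each replicate left out.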

Additional observations from a re-analysis of the deposited data

Results flagged for a closer look

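Reads that map to several places lie outside every locus count used here, yet form a large class, with 6459664 reads in replicate 1 and 3533259 reads in replicate 2. The tables do not divide this class by locus, so the part that miR-26a-5p has in it was not tested.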

How the results depend on the processing

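Only the denominator moved the levels by more than the replicate SD. Leaving out 1 replicate could not do so, because each of 2 values always lies within 1 SD of their mean. With Mir99a left out of the total, Mir26b stood at 17916 CPM, Mir26a-2 at 42.1 CPM, Mir26a-1 at 11.9 CPM and the family at 1.80% of sense reads, against 1.41% with it. With the reads mapping to several places added to the total, they stood at 7457, 17.5 and 4.97 CPM and 0.748%. Both strands together, TMM and DESeq2 scaling moved none of these 4 values by more than the SD, and the family share in a single replicate was 1.38% to 1.45%. As a ratio of CPM + 1, Mir26b exceeded Mir26a-2 by 413 times; the added 1 lowers ratios to rare loci by construction. The count of loci that differed between the libraries was 214, between 200 and 223 under other scalings, filters and strands, and 26 with edgeR's exactTest, in which Mir26b no longer passed (log2 ratio -0.17, adjusted p = 0.762). With at least 100 reads required in each replicate Mir26a-1 could not be tested. Windows of 18 and 22 nt left 2 of 3 loci with shared sequence. No paired analysis was possible because there is 1 group. At Mir26a-1, 31 to 80 reads limit the precision.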
